A study of Mus musculus with 12 samples.

Results

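Oxidative phosphorylation genes encode the protein complexes with which mitochondria turn electrons from food into ATP. The 81 genes described here were chosen by symbol alone, from the gene families of complex I (Nduf, 36 genes), complex II (Sdh, 4 genes), complex III (Uqcr, 8 genes), complex IV (Cox, 17 genes) and complex V (Atp5, 16 genes), out of 18949 genes present in both deposited tables. An 82nd match, Cox8c, was absent from one table and was not analysed here. RNA was measured by bulk sequencing in 12 freshly isolated mouse libraries, namely 6 of sarcomas from bone or bone marrow of p53 knockout mice (Tumor), 3 of marrow mesenchymal stem cells of p53 knockout mice (KO MSC) and 3 of the same cells of p53 wildtype mice (WT MSC). The stem cells had been sorted for LepR and CD140a and against CD45, Ter119 and CD31. RNA of the tumors was extracted in TRIzol, and the labels mention no sorting step for them. The labels give neither the age of the mice, nor which libraries came from separate animals, nor the allele or driver of the p53 loss, although the series title places that loss in mesenchymal cells. The p-values hence rest on library-to-library scatter, part of which may be technical.

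Complex I takes electrons from NADH and complex II takes them from succinate. Both pass them through coenzyme Q to complex III, which hands them over cytochrome c to complex IV, the enzyme that reduces oxygen. Complexes I, III and IV pump protons across the inner mitochondrial membrane, and complex V, the ATP synthase, lets the protons flow back and makes ATP. Apart from complex II, each complex joins subunits encoded in the nucleus with a few encoded in mitochondrial DNA, and some subunits of complex IV exist in alternative forms for heart and skeletal muscle, lung or testis. All 81 genes are nuclear. The 13 mitochondrially encoded subunits were not analysed here.

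The values are the authors' stabilized, batch-adjusted log2 values, on which a difference of 1 is a 2-fold difference for well-expressed genes and less than that for genes near the floor, the value of a gene with few reads or none. They are not scaled by gene length, so levels are compared between libraries and not between genes. The depth of the libraries is unknown. Exactly shared floor values place the libraries in 2 batches, with WT MSC 1, KO MSC 1 and tumors 1 to 3 in batch 1 and the others in batch 2. Between 8886 and 12313 genes lay at the floor in 10 libraries, but only 2569 in the library labelled KO_MSC 1 and 3594 in WT MSC 1. Trp53, the gene encoding p53, had values of 6.79 to 9.16 in the tumors, 10.49, 9.76 and 6.96 in the libraries labelled KO_MSC 1, 2 and 3, and 9.96, 10.04 and 10.61 in WT MSC. The libraries labelled KO_MSC 1 and 2 thus lay close to or within the WT MSC range. Which part of Trp53 was deleted is not given in the labels, so a gene-level value checks them only in part. The library labelled KO_MSC 3, with the lower value, also had the most genes at the floor and the lowest median over all genes tested (5.89). The part of this in its Trp53 value was not tested. By limma (adjusted p under 0.05), tumors were lower than WT MSC in all 8 stem cell markers, Lepr and Pdgfra among them, in 3 of 10 neutrophil and in 4 of 10 erythroid markers. They were higher in 9 of 10 macrophage, 7 of 8 endothelial, 2 of 6 proliferation and 1 of 5 lymphocyte markers. The macrophage markers averaged 10.9 to 14.2 in tumors, 5.31 to 6.77 in KO MSC and 5.26 to 6.83 in WT MSC, and the stem cell markers 6.62 to 9.01 in tumors, 11.2 to 12.1 in KO MSC and 12.6 to 13.6 in WT MSC.

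Levels of the oxidative phosphorylation genes were highest in the tumors. The median of the 81 genes was 13.70, 12.18, 13.08, 11.87, 13.38 and 12.82 in tumors 1 to 6. The libraries labelled KO_MSC 1, 2 and 3 had medians of 9.31, 11.25 and 12.24, and those of WT MSC 1, 2 and 3 were 8.87, 10.20 and 10.17. All 6 tumors lay above every WT MSC library, whereas the library labelled KO_MSC 3 lay above tumors 2 and 4. Of the 81 genes, 71 were highest among the KO MSC libraries in KO_MSC 3 and 74 were lowest in KO_MSC 1, and in WT MSC 68 were lowest in library 1. The batch 1 library was thus the low one in both stem cell groups. These 2 libraries, KO_MSC 1 and WT MSC 1, also had the highest marker means of their groups for neutrophils (12.18 and 10.39) and erythroid cells (11.65 and 11.93). The part of such cells in the low levels was not tested. The library labelled KO_MSC 3 stood apart in other measures too. Its value of Rn45s, the ribosomal RNA precursor, was 19.7, against 13.4 to 17.9 in the other libraries, its median over all genes tested was 5.89, against 6.68 to 7.08, and it had the most genes at the floor. The part of these differences in its high levels was not tested.

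**Figure D1:**
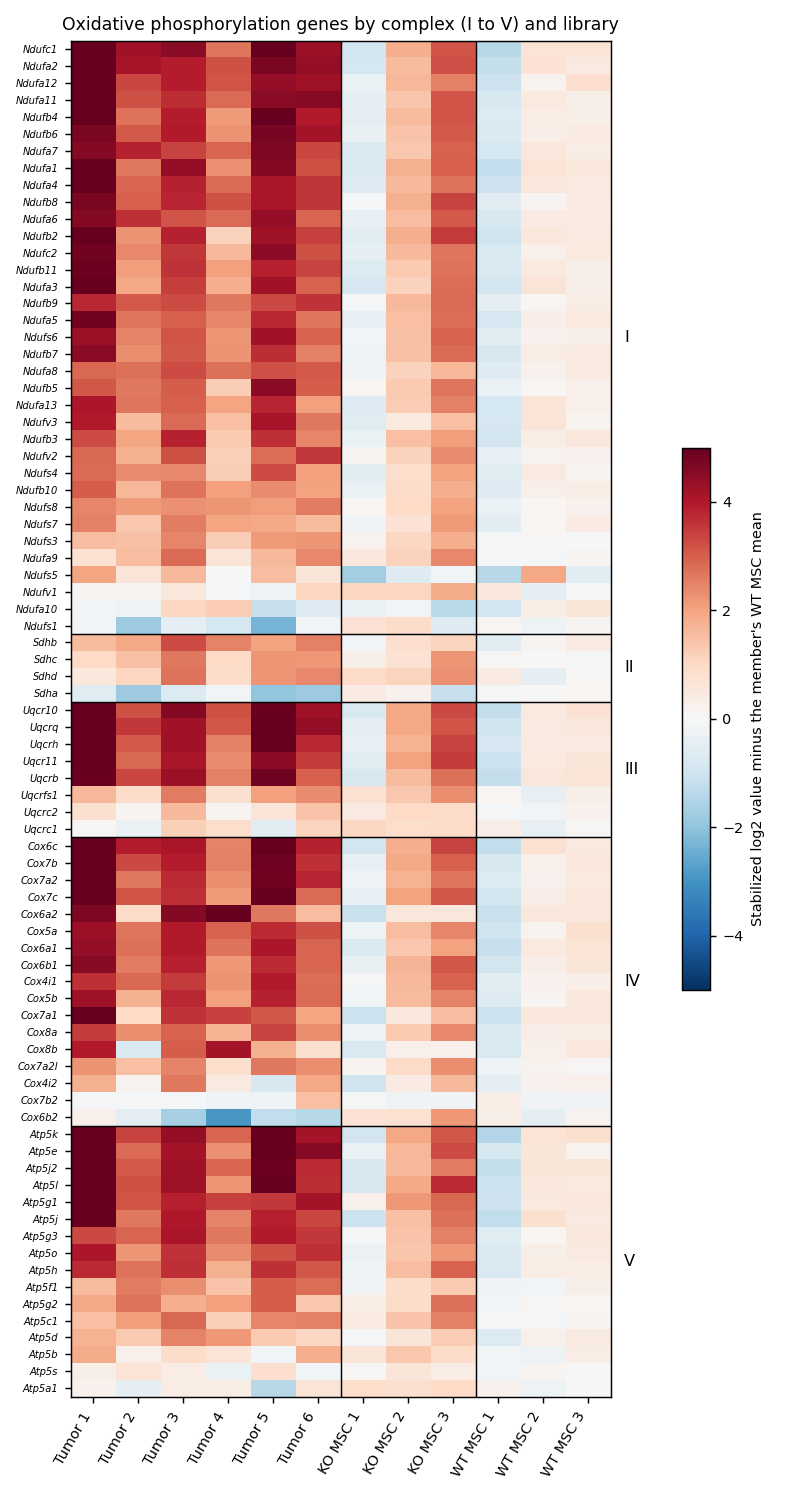
Stabilized log2 value of 80 of the 81 genes in each library minus the gene's WT MSC mean (color, limited to -5 and 5); rows are genes grouped by complex, columns are libraries. Most rows are red in all 6 tumors, intermediate in the library labelled KO_MSC 3 and near 0 in KO_MSC 1, while Sdha, Ndufs1 and Cox6b2 are blue in most tumors.

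In tumors against WT MSC, 65 of the 81 genes rose, none fell and 16 did not pass the test (limma, two-sided, Benjamini-Hochberg adjusted p under 0.05 over 18948 genes). Among all genes tested, 10.4% rose and 10.9% fell. The median log2 difference was 3.11 for the 81 genes and -0.06 for all genes tested. In 67 of the genes all 6 tumors lay above all 3 WT MSC libraries, against 12.9% of all genes tested. At an unadjusted p under 0.05, 67 were higher and 1 was lower, against 16.4% and 20.8% of all genes tested. Within batch 1 the median difference was 4.01 (3 tumors and 1 WT MSC library, no test), and within batch 2 it was 2.54 with 11 genes passing (3 tumors and 2 WT MSC libraries). The medians of all genes there were -0.17 in batch 1 and 0.14 in batch 2. A higher level in a bulk sample can stand for more cells of a type or more RNA per cell, which cannot be told apart here. The same holds for a lower level, with fewer cells or less RNA per cell. Shorter genes rose more in this comparison, among these genes and among others, as set out further down, and the part of macrophage and endothelial RNA in the rise was not tested. Tumors and WT MSC also differ in p53 genotype and in how the samples were prepared, with sorting named for the stem cells alone. These cannot be told apart from tumor state here, and RNA quality was not examined.

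The rise covered all 5 complexes but not all of their parts. Coding length differs between these parts, and values adjusted for it are given further down. By complex, 31 of 36 genes rose in complex I (median difference 3.14), 2 of 4 in complex II (1.70), 6 of 8 in complex III (3.86), 13 of 17 in complex IV (3.18) and 13 of 16 in complex V (3.14). The complex I median across genes averaged 12.6 ± 0.819 in tumors, 10.8 ± 1.52 in KO MSC and 9.56 ± 0.665 in WT MSC (SD over 6, 3 and 3 libraries). For complex II the averages lay closer together, at 12.3 ± 0.680 in tumors, 11.7 ± 0.372 in KO MSC and 10.9 ± 0.208 in WT MSC. Complex III averaged 13.4 ± 0.909 in tumors, 11.3 ± 1.87 in KO MSC and 9.87 ± 0.940 in WT MSC.

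**Figure D2:**
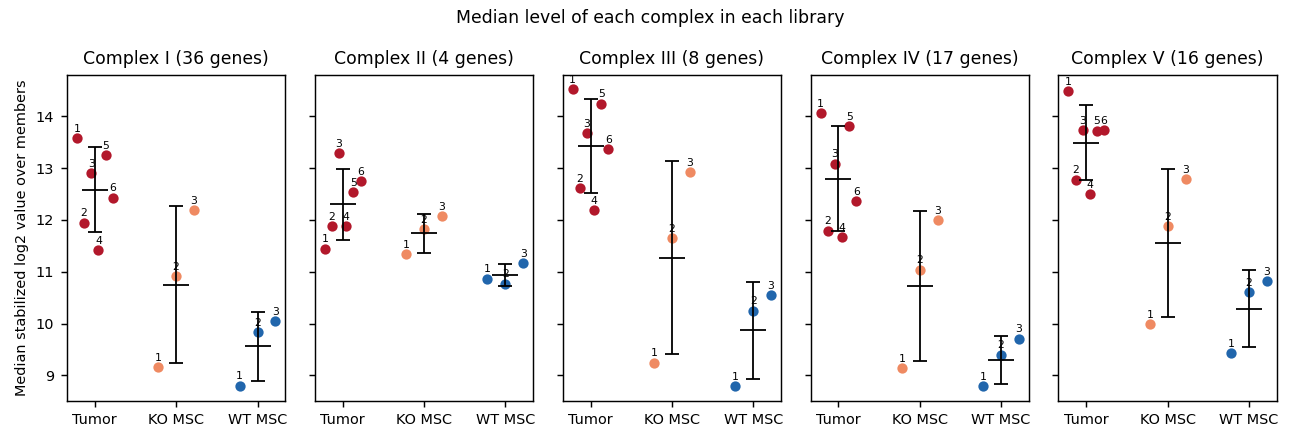
Median stabilized log2 value over the genes of each complex, 1 point per library (numbered by replicate), with the mean and SD of each group; groups run from Tumor to KO MSC to WT MSC. The 6 tumors lie above the 3 WT MSC libraries in every complex, and the library labelled KO_MSC 3 lies within the tumor range in each.

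Complex I has a catalytic core and a larger set of accessory subunits around it. Among the 29 nuclear accessory genes, 27 rose in tumors against WT MSC with a median difference of 3.29, and among the 7 nuclear core genes 4 rose with a median of 1.83. Ndufa8, an accessory subunit (GRCm38 chr2:36036326-36049406, minus strand), had the smallest adjusted p of all 81 genes. Its values ran from 12.56 to 13.07 in tumors with a median of 12.77, against 9.16, 10.03 and 10.27 in WT MSC. The tumors were tightly grouped and all above the stem cells, and the difference was 2.98 (SE 0.35, adjusted p = 0.0011). Ndufb9, also accessory (chr15:58933756-58939488, plus strand), ran from 13.26 to 14.39 in tumors, against 10.17, 10.72 and 11.01 in WT MSC, a difference of 3.27 (SE 0.40, adjusted p = 0.00118).

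Ndufa12 (chr10:94198955-94221443, plus strand) and Ndufb8, accessory subunits as well, rose by 4.02 and 3.72 (SE 0.52 and 0.48, adjusted p = 0.00133 for both). Ndufc1 had the largest difference of the 81 genes, 4.80 (SE 0.86, adjusted p = 0.00386), with tumors from 11.74 to 15.63 and WT MSC at 7.70, 9.76 and 9.74. Its groups did not overlap, but both were wide. The other 22 accessory genes that rose had differences from 1.63 (Ndufa9) to 4.35 (Ndufa2). Ndufa4, which carries a complex I name and is also known as a complex IV subunit, was among them with 3.78 (SE 0.62).

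Of the complex I core, Ndufs8, Ndufs3, Ndufs7 and Ndufv2 rose, by 2.30, 1.83, 1.98 and 2.56. These lie, as do the other nuclear core subunits, in the arm of the enzyme that leads electrons towards coenzyme Q. Among the core genes that did not pass were Ndufs1, which holds several iron-sulfur clusters, and Ndufv1, which binds NADH. Ndufs1 had values of 7.69 to 9.90 in tumors with a median of 9.36, against 10.13, 9.77 and 10.17 in WT MSC. The highest tumors reached the lowest WT MSC library, and the difference was -0.95 (SE 0.51, adjusted p = 0.192). The difference of Ndufv1 was 0.26 (adjusted p = 0.643), and those of Ndufa10 and Ndufs5, the accessory genes that did not pass, were 0.03 and 1.06.

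Complex II, succinate dehydrogenase, is also an enzyme of the citric acid cycle and is the one complex encoded wholly in the nucleus. Its subunits did not move together. Sdhb, the iron-sulfur subunit, ran from 12.33 to 14.01 in tumors with a median of 12.99, against 10.20, 10.89 and 11.14 in WT MSC, without overlap, and rose by 2.30 (SE 0.44, adjusted p = 0.00502). Sdhc, a membrane anchor, rose by 1.74 (SE 0.42, adjusted p = 0.0151). Sdhd, the other anchor, lay at 11.67 to 13.86 in tumors, against 11.53, 10.66 and 11.20 in WT MSC, and did not pass at a difference of 1.65 (SE 0.54, adjusted p = 0.0529). Sdha, the flavoprotein that oxidizes succinate (chr13:74322254-74350280, minus strand), lay the other way. Its values were 9.85 to 11.71 in tumors with a median of 10.59, against 11.73, 11.84 and 11.93 in WT MSC. Every tumor was below every WT MSC library, but the difference of -1.17 (SE 0.46) did not pass (adjusted p = 0.0941). It passed without tumor 4 (-1.38, adjusted p = 0.0322), with quantile scaling (-2.03, adjusted p = 0.00888) and with library weights (-1.20, adjusted p = 0.0125). With the coding length adjustment described further down it was -0.48 (adjusted p = 0.356).

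In complex III, 5 small subunits surround the core proteins Uqcrc1 and Uqcrc2 and the Rieske iron-sulfur protein Uqcrfs1. All 5 small subunit genes rose in tumors against WT MSC, by 3.82 to 4.45, while of the other 3 only Uqcrfs1 passed. Uqcrq (chr11:53427922-53430827, minus strand) ran from 12.78 to 15.69 in tumors with a median of 13.98, against 8.70, 10.13 and 10.24 in WT MSC. The groups were well apart, with a difference of 4.39 (SE 0.66, adjusted p = 0.00195). Uqcrh, the hinge protein that helps cytochrome c bind, rose by 3.97 (SE 0.64, adjusted p = 0.00243), and Uqcr10 and Uqcrb rose by 4.45 and 3.82. Uqcrfs1 rose by 1.73 (SE 0.46, adjusted p = 0.0230). Uqcrc1 ran from 11.79 to 13.57 in tumors, against 12.72, 11.97 and 12.43 in WT MSC, and its groups overlapped (0.39, adjusted p = 0.600), as did those of Uqcrc2 (0.80, adjusted p = 0.164).

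Of complex IV, 13 of 17 genes rose. Cox5a, which lies on the matrix side of the enzyme (chr9:57521279-57532426, plus strand), ran from 12.77 to 14.37 in tumors with a median of 13.54, against 9.10, 10.26 and 10.87 in WT MSC. Its groups did not overlap and the difference was 3.47 (SE 0.51, adjusted p = 0.00179). Cox4i1, the common form of the largest nuclear subunit, rose by 3.18 (SE 0.54, adjusted p = 0.00291), Cox7b by 3.88 (adjusted p = 0.00192) and Cox7a2 by 3.74 (adjusted p = 0.00305). Cox6c, Cox7c, Cox5b, Cox6a1, Cox6b1, Cox8a and Cox7a2l rose by 4.22, 3.73, 3.09, 3.46, 3.30, 2.70 and 2.01. The last of these is known for its part in joining complexes III and IV into a supercomplex. The muscle forms and the 4 genes that did not pass, Cox4i2, Cox6b2, Cox7b2 and Cox8b, are described further down.

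ATP synthase has a catalytic head, called F1, and a part in and above the membrane that conducts protons and holds the head in place. Of the 5 head genes 3 rose, with a median of 1.66 over the 5, and of the other 11 genes 10 rose, with a median of 3.4. Atp5g1, Atp5g2 and Atp5g3 encode the same ring protein, and all 3 rose. Atp5g1 (chr11:96068852-96075670, minus strand) ran from 12.97 to 14.86 in tumors with a median of 13.54, against 8.79, 10.35 and 10.39 in WT MSC. Its difference was 3.85 (SE 0.53, adjusted p = 0.00152), that of Atp5g3 3.4 (adjusted p = 0.00162) and that of Atp5g2 2.14 (adjusted p = 0.00382). The values of all 3 were without overlap between tumors and WT MSC. The stalk genes Atp5o and Atp5h rose by 3.17 and 3.11 (adjusted p = 0.00266 and 0.00256).

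The main subunits of the head that bind ADP and make ATP are encoded by Atp5a1 and Atp5b, and neither passed the test. Atp5a1 ran from 11.83 to 13.89 in tumors with a median of 13.53, against 13.44, 12.99 and 13.27 in WT MSC, and its groups overlapped (-0.04, SE 0.52, adjusted p = 0.958). Atp5b ran from 13.63 to 15.61 in tumors, against 13.64, 13.53 and 14.13 in WT MSC (0.90, SE 0.61, adjusted p = 0.301). The smallest head subunit gene, Atp5e, rose by 4.16 (SE 0.76, adjusted p = 0.0042), and Atp5c1 and Atp5d, which form the central stalk with it, by 2.10 and 1.66. Atp5s, a coupling factor and not a subunit of the finished enzyme, did not pass (0.28, adjusted p = 0.562).

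The genes that rose most encode short proteins. Of the 23 genes with a coding length under 300 nucleotides, 20 rose in tumors against WT MSC with a median difference of 3.78, and of the 37 genes from 300 up to 600, 34 rose (3.23). From 600 up to 1200, 10 of 12 rose (2.04). Among the 9 genes of at least 1200, only Ndufv3 rose, and the median was 0.39. Ndufv3 (chr17:31520115-31531331, plus strand) encodes an accessory subunit in a short and a long form, and its length here is that of the long form, 1404 nucleotides. It ran from 10.73 to 13.32 in tumors, against 8.37, 9.87 and 9.39 in WT MSC (2.78, SE 0.64, adjusted p = 0.0117). Across the 81 genes Spearman's rho of difference and coding length was -0.67, given as a description, since the genes share the same libraries.

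**Figure D3:**
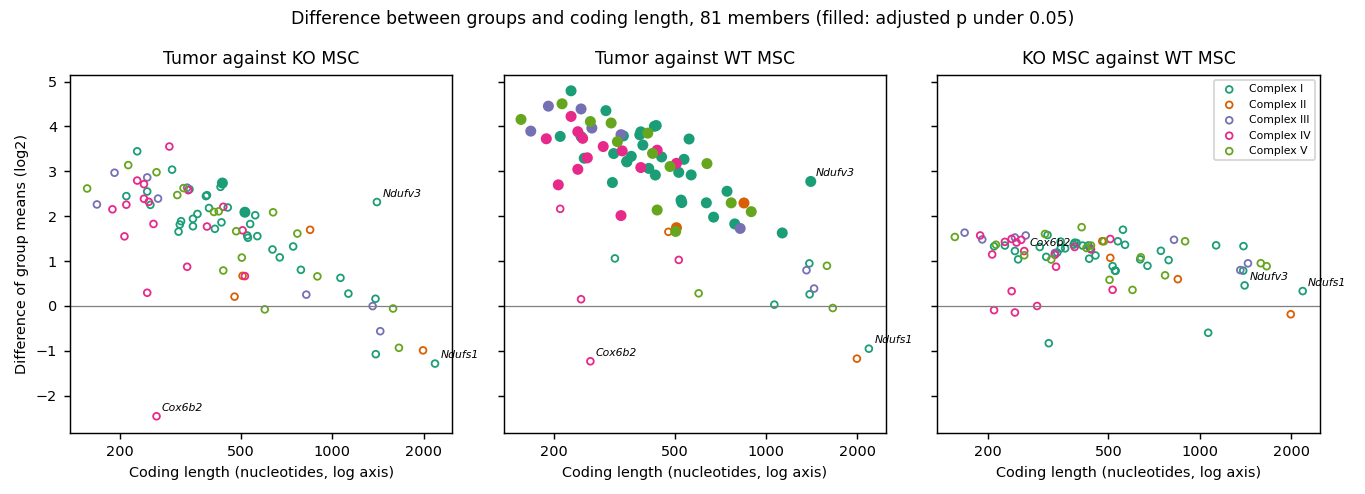
Difference of group means (log2) of each of the 81 genes against its coding length (log axis), for the 3 comparisons; colors mark complexes and filled points are genes with an adjusted p under 0.05. In tumors against WT MSC, 65 points are filled and the differences decline from 4.80 for Ndufc1 to below 0 for Ndufs1, the longest gene.

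Other short genes also rose. Of other genes tested with a mean of at least 8, 131 of 169 rose under 300 nucleotides, 520 of 934 from 300 up to 600, 410 of 2053 from 600 up to 1200 and 89 of 2725 from 1200 on, so that in the shortest class the share was close to that of the 81 genes. Among these other genes, the median difference of tumors against WT MSC in the same 4 classes was 2.58, 1.60, 0.37 and -0.60. The medians of the 81 genes, 3.78, 3.23, 2.04 and 0.39, were higher in each class, and from 1200 on the 2 medians differed in sign. Over all 5881 such genes rho with coding length was -0.57. Coding length therefore moved with the result, in these genes and in the rest. After a smooth trend on coding length was subtracted in each library, an alternative chosen after the data were seen, 38 of the 73 genes that could be fitted rose, against 12.4% of the 5954 genes in that fit. The median difference of the 73 genes was then 1.28, and 3.21 without the subtraction. Of the 63 genes among them that had risen before, 36 still did. By complex, 20 of 35 genes rose in complex I, 1 of 4 in complex II, 4 of 8 in complex III, 4 of 11 in complex IV and 9 of 15 in complex V. Complex I core genes then ranged from -0.22 (Ndufs1) to 1.90 (Ndufv2), and accessory genes from -0.01 (Ndufa10) to 3.15 (Ndufv3). Uqcrc1, Uqcrc2 and Uqcrfs1 had 0.79, 1.13 and 1.25, and the small subunits of complex III 0.43 (Uqcr11) to 1.61 (Uqcrq). These parts of complex III, apart before, thus overlapped. The ATP synthase head ranged from 0.23 (Atp5d) to 1.76 (Atp5c1), and the rest from 0.43 (Atp5g2) to 2.23 (Atp5o).

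The subtraction changed which genes led. Ndufv3 then had the largest difference, 3.15 (SE 0.68, adjusted p = 0.0079), followed by Ndufb8 with 2.50 (SE 0.44, adjusted p = 0.00316), and Atp5b now passed with 1.41 (adjusted p = 0.0486). The value of Ndufv3 depends on the length of its long form, used here, and which form was expressed was not examined. Ndufa8 and Ndufa12 kept their calls with 1.59 and 2.30 (adjusted p = 0.00563 and 0.00467). The short genes Uqcr11, Cox7c, Atp5e and Cox8a no longer passed, at 0.43, 0.47, 0.56 and -0.40. These genes were picked after their values had been seen.

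**Figure D4:**
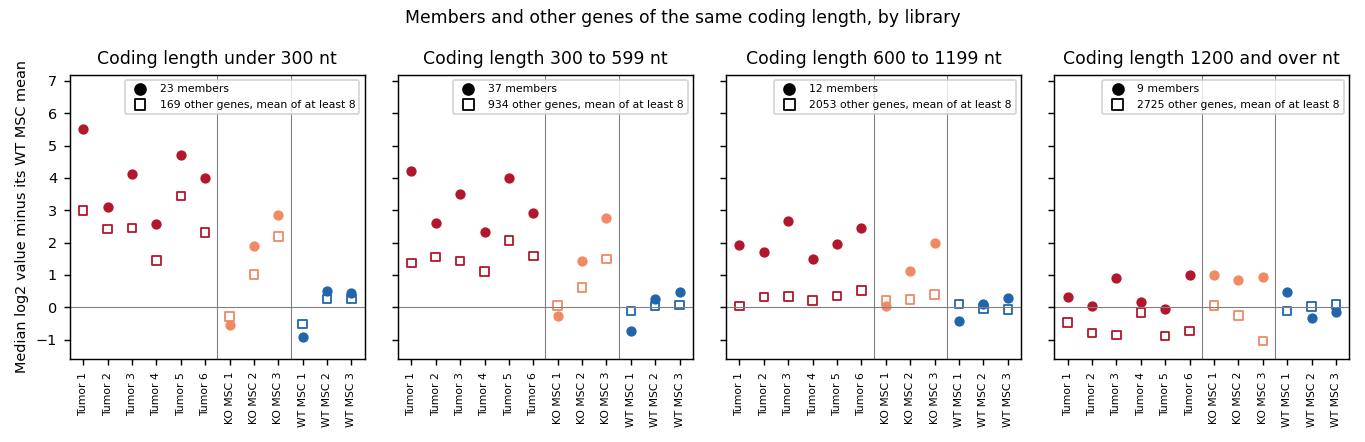
Median stabilized log2 value minus its WT MSC mean in each library, in 4 classes of coding length, for the 81 genes (filled circles) and for other genes with a mean of at least 8 (open squares); colors mark Tumor, KO MSC and WT MSC. In the first 3 classes both kinds of gene are above 0 in the 6 tumors and the filled points lie higher, and from 1200 nucleotides on the medians lie within about 1 of 0.

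Promoters of respiratory chain genes are known targets of the factors NRF1 and NRF2, of which NRF2 is also called GABP and belongs to the ETS family. For 68 of the 81 genes RefSeq gave a start site on GRCm38.p6, and the 250 bases before it were searched on both strands for part of the NRF1 site (GCATGCGC), an ETS site (CCGGAAG), a YY1 site (AAGATGGCG) and the E-box form favored by muscle factors (CAGCTG). The NRF1 letters were in 8 of 68 promoters (11.8%), against 3.77% of the promoters of 12966 genes tested. The ETS letters were in 11 (16.2%), against 11.3%. The YY1 letters were in 0, against 0.933%, and the E-box letters in 6 (8.82%), against 12%. A match is a description of the sequence and not a site of binding, and no binding was measured here. The 4 promoters printed here, 1 each of complexes I, III, V and IV, were picked after the search to show the letters found; capitals mark them.
Ndufa11, chr17:56717512-56717761, plus strand, with the NRF1 letters: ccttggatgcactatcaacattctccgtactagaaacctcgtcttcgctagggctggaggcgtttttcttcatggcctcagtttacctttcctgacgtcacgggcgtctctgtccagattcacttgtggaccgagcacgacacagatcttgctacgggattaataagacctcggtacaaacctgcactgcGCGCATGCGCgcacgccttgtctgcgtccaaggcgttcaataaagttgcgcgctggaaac
Uqcrh, chr4:116075071-116075320, minus strand, with the ETS letters 10 bases before the start: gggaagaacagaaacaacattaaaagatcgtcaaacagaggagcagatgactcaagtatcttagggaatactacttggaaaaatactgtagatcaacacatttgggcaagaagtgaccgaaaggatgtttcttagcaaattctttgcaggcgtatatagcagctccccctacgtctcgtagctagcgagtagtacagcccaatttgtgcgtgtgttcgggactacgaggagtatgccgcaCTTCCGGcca
Atp5l, chr9:44920743-44920992, minus strand, with the NRF1 and ETS letters: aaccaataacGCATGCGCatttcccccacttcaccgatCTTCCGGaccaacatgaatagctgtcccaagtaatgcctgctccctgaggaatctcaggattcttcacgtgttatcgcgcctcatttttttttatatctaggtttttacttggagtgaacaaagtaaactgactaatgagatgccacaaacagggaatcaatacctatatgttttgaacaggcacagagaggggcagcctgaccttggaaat
Cox8b, chr7:140900447-140900696, minus strand, with the E-box letters 19 bases before the start: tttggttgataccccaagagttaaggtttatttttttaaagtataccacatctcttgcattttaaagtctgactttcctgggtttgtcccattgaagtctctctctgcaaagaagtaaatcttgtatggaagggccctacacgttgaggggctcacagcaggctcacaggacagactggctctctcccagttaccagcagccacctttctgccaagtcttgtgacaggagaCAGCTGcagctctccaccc
Ndufa11, Uqcrh and Atp5l rose in tumors against WT MSC by 4.00, 3.97 and 4.08 (adjusted p = 0.00162, 0.00243 and 0.00493). The genes of the factors themselves did not rise: Nrf1 and Gabpa fell, by 1.38 and 1.17 on the log2 scale (adjusted p = 0.0265 and 0.0129), and Yy1 did not pass at 0.78 (adjusted p = 0.237). Gabpb1, which encodes another subunit of GABP, did not pass either. It had 7.55 to 9.06 in tumors, against 8.53, 8.44 and 8.39 in WT MSC. Among all genes tested, 10.9% fell. These differences were not adjusted for coding length, and its part in them was not tested.

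Some complex IV subunits have a form made mainly in heart and skeletal muscle beside a common one. The muscle forms Cox6a2 and Cox7a1 rose in tumors against WT MSC, and Cox8b did not pass. Cox6a2 (chr7:128205435-128206387, minus strand) had 9.72, 5.98, 9.61, 11.95, 7.65 and 6.58 in tumors 1 to 6, and the floor of its batch, 3.92 or 5.58, in every KO MSC and WT MSC library. Tumors were thus above all stem cell libraries by widely different amounts, and the difference from WT MSC was 3.55 (SE 1.15, adjusted p = 0.0493). This call was lost under several alternatives, without tumor 1, 3 or 5 or any 1 WT MSC library among them (adjusted p from 0.0605 to 0.203). Cox7a1 (chr7:30184144-30186078, plus strand) had 10.23, 6.0, 8.63, 8.46, 8.11 and 6.98 in tumors 1 to 6, 3.94, 5.56 and 6.56 in KO MSC and 3.94, 5.56 and 5.56 in WT MSC. The difference from WT MSC was 3.05 (SE 0.80, adjusted p = 0.0215), and it did not pass without any 1 of the WT MSC libraries (adjusted p from 0.0521 to 0.119).

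Cox8b had 9.0, 4.25, 8.03, 9.17, 6.80 and 5.82 in tumors 1 to 6, against 4.25, 5.25 and 5.53 in WT MSC, where tumor 2 sat at its batch's floor. Its difference was 2.17 (SE 0.98, adjusted p = 0.134). Skeletal muscle markers moved with these 3 genes among the tumors. The mean of 12 such markers, with Acta1, Ckm and Mb among them, was 8.34, 5.24, 10.12, 13.72, 6.88 and 6.05 in tumors 1 to 6. It was 4.89, 5.65 and 5.40 in KO MSC and 4.68, 5.48 and 5.60 in WT MSC. Tumors 4, 3 and 1 were the 3 highest for the markers, for Cox6a2, for Cox7a1 and for Cox8b, and tumor 2 was the lowest for all 4. None of the 12 markers passed in tumors against WT MSC (4 did at an unadjusted p under 0.05), and the part of muscle RNA in the muscle forms was not tested.

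**Figure D5:**
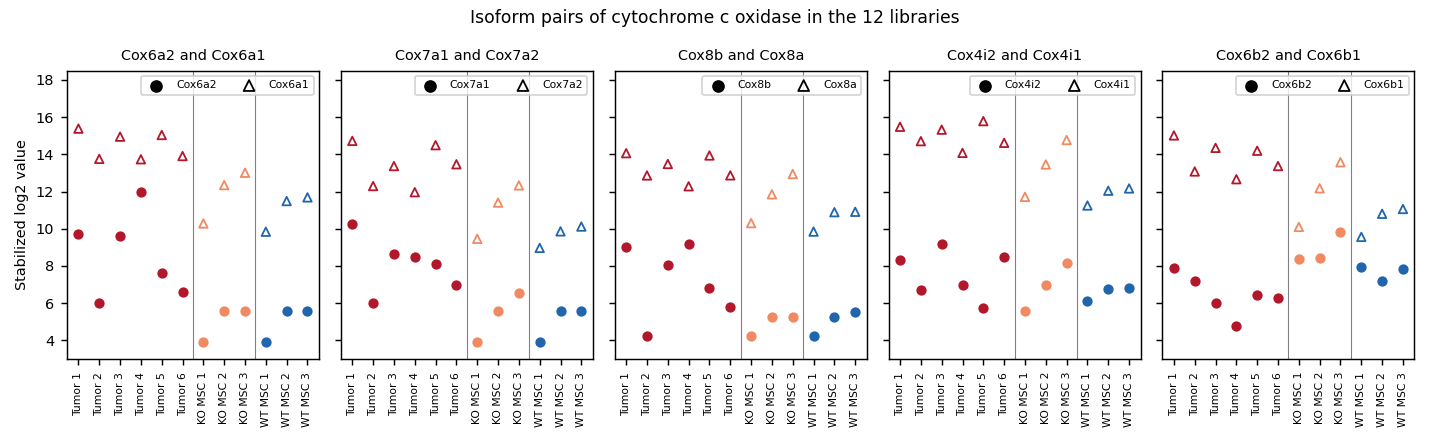
Stabilized log2 values of 5 pairs of complex IV forms in the 12 libraries, with the tissue form as filled circles and the common form as open triangles; colors mark Tumor, KO MSC and WT MSC. The common forms are above WT MSC in all 6 tumors, while Cox6a2, Cox7a1 and Cox8b are spread widely, and Cox6b2 is lower in all 6 tumors than in the KO MSC libraries.

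The remaining tissue forms did not follow. Cox4i2, the form known from lung, had 5.74 to 9.18 in tumors with a median of 7.66, 5.57, 6.97 and 8.18 in KO MSC and 6.10, 6.75 and 6.79 in WT MSC, and the groups overlapped (1.03 against WT MSC, adjusted p = 0.293). Cox6b2, the form known from testis (chr7:4751792-4753094, minus strand), had 7.90, 7.21, 6.02, 4.75, 6.42 and 6.28 in tumors 1 to 6. It had 8.39, 8.43 and 9.84 in KO MSC and 7.94, 7.2 and 7.85 in WT MSC. Every tumor was below every KO MSC library, and tumors 1 and 2 reached into the WT MSC range. The difference was -2.46 against KO MSC (SE 0.65, adjusted p = 0.0536) and -1.23 against WT MSC (SE 0.59, adjusted p = 0.152). The first passed without tumor 1 (-2.75, adjusted p = 0.0360), with quantile scaling (-2.44, adjusted p = 0.0497), with all groups in 1 fit (-2.46, adjusted p = 0.022) and with library weights (-2.02, adjusted p = 0.00679). It did not pass under the other alternatives (adjusted p from 0.0522 to 0.240). Cox7b2, also known from testis, stayed at 4.70 or 4.80, the floors of its batches, in all libraries but tumor 6 (6.37) and WT MSC 1 (5.23).

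In tumors against KO MSC, 2 of the 81 genes rose and none fell, against 2.7% of all genes tested that rose and 2.28% that fell. The share is near that of all genes. The median difference was 1.86, and 0.04 for all genes tested. At an unadjusted p under 0.05, 55 genes were higher and 3 lower, against 13.6% and 12.8% of all genes tested. Tumors lay above all KO MSC libraries without overlap in 15 genes, against 8% of all genes tested. Against KO MSC, too, 9 of 10 macrophage markers were higher in tumors, and their part in these differences was not tested. Sample preparation cannot be told apart from tumor state in this comparison either. Ndufa12 had 11.80 to 13.70 in tumors with a median of 12.74, against 8.30, 10.31 and 11.19 in KO MSC, without overlap (2.74, SE 0.64, adjusted p = 0.0332). Ndufa8 had 12.56 to 13.07 in tumors, against 9.65, 10.98 and 11.48 in KO MSC, without overlap (2.09, SE 0.46, adjusted p = 0.0273).

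The count of 2 rests on the KO MSC libraries and on single tumors. Every tumor was above the library labelled KO_MSC 1 in 67 of the 81 genes, above KO_MSC 2 in 59 and above KO_MSC 3 in 16. Without KO_MSC 3, which stood apart as described above, 31 genes rose, against 3.72% of all genes in that fit, and the median was 2.53. Without KO_MSC 1 none passed and the median was 1.14, and none passed without KO_MSC 2 or without tumor 3, 5 or 6 either. Within batch 1 the median was 3.53 (3 tumors and the 1 library labelled KO_MSC 1, no test) and within batch 2 it was 0.91, with no gene passing. The medians of all genes there were -0.22 in batch 1 and 0.33 in batch 2. With Trp53 of the libraries labelled KO_MSC 1 and 2 close to WT MSC, a direction drawn from this group depends on labels that the data check only in part.

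By complex, the median difference from KO MSC was 1.88 in complex I, 0.44 in complex II, 2.33 in complex III, 2.15 in complex IV and 1.88 in complex V. The 5 small subunits of complex III had 2.26 to 2.97, and Uqcrc1, Uqcrc2 and Uqcrfs1 had -0.56, 0.00 and 0.25. Sdhb was the complex II gene with the smallest p. It had 12.33 to 14.01 in tumors, against 10.60, 11.57 and 11.84 in KO MSC, without overlap, and did not pass (1.70, SE 0.50, adjusted p = 0.0741). In complex V the largest differences were those of Atp5k and Atp5j2, 3.14 and 2.98 (adjusted p = 0.0826 and 0.0615). Of the common complex IV forms, Cox6a1 had 2.58 (SE 0.71, adjusted p = 0.0609) and Cox5a 2.21 (SE 0.63, adjusted p = 0.0663), both without overlap.

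Tumors lay below all KO MSC libraries in 3 genes, none of which passed, against 5.39% of all genes tested. These were Cox6b2, Ndufv1 and Atp5a1, whose differences were -2.46, -1.07 and -0.93 (adjusted p = 0.0536, 0.158 and 0.322). Ndufs1 also had a negative difference, -1.28 (SE 0.57, adjusted p = 0.183), with overlap. With quantile scaling 3 genes passed, 1 higher (Ndufa12) and 2 lower (Cox6b2 and Ndufv1), in place of 2 higher. Among all genes tested that scaling gave 520 higher and 961 lower, in place of 512 and 432. Spearman's rho of difference and coding length was -0.69 for the 81 genes and -0.28 for 5881 others. After the subtraction of the length trend, 5 of 73 genes rose, against 5.95% of the genes in that fit, and the median was 0.82. The 5 were Ndufv3 (2.57), Ndufa12 (1.77), Sdhb (1.59), Atp5f1 (1.41) and Ndufa8 (1.35).

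In KO MSC against WT MSC no gene passed, neither among the 81 nor among all 18948 tested, of which 0% were called. The lowest adjusted p was 0.551. At an unadjusted p under 0.05, 1637 genes differed, and 487 of them were higher, 2.57% of all. Of the 81 genes, 7 were higher at that level and 0 lower. The median difference was 1.23, and -0.01 for all genes tested, and 76 of the 81 differences were positive. No cell type marker passed the test. The median difference was 1.09 for 10 neutrophil markers (9 positive), 1.35 for 6 proliferation markers (3 higher at an unadjusted p under 0.05) and -1.59 for 8 stem cell markers (5 lower without overlap), and their part in the difference was not tested. The groups did not overlap in 14 genes, all higher in KO MSC, against 6.31% of all genes tested.

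Ndufv1, Uqcrfs1, Sdhd and Atp5a1 were among those 14 genes. Ndufv1 had 12.25, 12.24 and 13.01 in KO MSC, against 11.70, 10.73 and 11.07 in WT MSC (1.33, SE 0.45, adjusted p = 0.551). Uqcrfs1 had 11.10, 11.70 and 12.68 in KO MSC, against 10.46, 9.94 and 10.64 in WT MSC (1.48, SE 0.49, adjusted p = 0.551). Sdhd had 12.08, 12.25 and 13.40 in KO MSC, against 11.53, 10.66 and 11.20 in WT MSC (1.44, SE 0.50, adjusted p = 0.551). Atp5a1 had 14.10, 14.05 and 14.22 in KO MSC, against 13.44, 12.99 and 13.27 in WT MSC (0.89, SE 0.51, adjusted p = 0.657). In each of these genes all 3 KO MSC libraries lay above all 3 WT MSC libraries, and none passed. The genes Atp5c1, Ndufa9, Atp5g1 and Cox6b2, also among the 7 at an unadjusted p under 0.05, had differences of 1.44, 1.35, 1.76 and 1.23 (adjusted p = 0.561, 0.556, 0.575 and 0.571).

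The median difference moved with single libraries, and it rests on the same labels as above. Without the library labelled KO_MSC 3 the median over the 81 genes was 0.55, and without KO_MSC 1 it was 1.97. Within batch 1 it was 0.43 (1 library each, no test), and within batch 2 it was 1.65 (2 libraries each, 79 genes that varied). The medians of all genes there were 0.10 in batch 1 and -0.21 in batch 2. With libraries weighted by their scatter, 13 genes passed, all higher in KO MSC, against 4.36% of all genes that were higher in that fit, with Ndufv1, Uqcrfs1 and Sdhd among them. Coding length moved with this difference too, with a rho of -0.36 for the 81 genes and -0.60 for 5881 others. After the length trend was subtracted the median was 0.47 and no gene passed. The comparisons share libraries, so differences with WT MSC and with KO MSC are not independent of one another.

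Among the 6 tumors these genes had a larger median SD than all genes tested. The median SD over the tumors was 0.879 for the 81 genes and 0.525 for all genes tested. The 2 sets differ in level, however. All genes tested had medians of 6.68 to 7.08 in the tumors, against 11.87 to 13.70 for the 81 genes, and differences near the floor are compressed. Genes of like level or coding length were not compared in this way. Tumor 1 was the highest tumor for 45 genes and tumor 4 the lowest for 55. The largest SDs were those of the muscle forms Cox6a2 and Cox8b (2.25 and 1.93), followed by Ndufb2 (1.53), Ndufc1 (1.5), Cox7a1 (1.46), Atp5k (1.45), Atp5l (1.39) and Atp5e (1.38). Ndufb2, an accessory subunit of complex I, had 14.53, 11.27, 12.84, 10.16, 13.23 and 12.41 in tumors 1 to 6. Atp5k, a membrane subunit of the ATP synthase, had 15.34, 11.76, 12.78, 11.32, 13.68 and 12.57. Both were highest in tumor 1 and lowest in tumor 4, whereas the muscle forms Cox6a2 and Cox8b were highest in tumor 4. The smallest SDs were those of Ndufs8 (0.190) and Ndufa8 (0.233).

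Genes that build or serve the complexes shared the direction in part. Of 44 assembly factors, 22 rose and 1 fell in tumors against WT MSC, with a median difference of 1.10. Among all genes tested, 10.4% rose and 10.9% fell. The lists here and below were not adjusted for coding length, and its part in their counts was not tested. Uqcc2, which helps make cytochrome b for complex III, rose by 4.01 (SE 0.51, adjusted p = 0.00132), and it was the one assembly factor that rose against KO MSC as well (2.76, adjusted p = 0.0488). Cox14 and the copper carrier Cox17, which help build complex IV, rose by 3.55 and 2.89. Cox15, which helps make its heme, fell by 1.77 on the log2 scale (adjusted p = 0.00481). Of 17 carriers and other inner membrane genes, 9 rose and none fell (median 1.46). Cycs, the gene of cytochrome c, had 11.73 to 14.96 in tumors, against 7.90, 9.99 and 10.57 in WT MSC, and rose by 3.68 (SE 0.74, adjusted p = 0.00631). The ADP/ATP carriers Slc25a4 and Slc25a5 rose by 1.64 and 2.09.

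Citric acid cycle genes and regulators did not share it, in values not adjusted for coding length. Of 17 genes of the cycle and of pyruvate entry, 1 rose (Suclg1, 1.29) and 3 fell in tumors against WT MSC (Pcx, Ogdh and Dlst, with -2.19, -1.75 and -1.07), with a median of -0.30. Of 14 regulators of mitochondrial biogenesis, none rose and 5 fell (Polg, Polrmt, Nrf1, Pprc1 and Gabpa), with a median of -0.38. Ppargc1a, a coactivator of these genes, sat at the floor value 5.34 in tumors 5 and 6 and in both batch 2 libraries of each stem cell group, and did not pass (-0.71, adjusted p = 0.221). Of 17 glycolysis genes, 2 rose, Hk2 by 2.36 and Pgk1 by 2.23 (adjusted p = 0.00681 and 0.0024), with a median of 0.45. Against KO MSC, 1 assembly factor and 1 glycolysis gene (Hk2, 2.00, adjusted p = 0.0392) rose and none of these lists had a gene that fell. Among all genes tested, 2.7% rose and 2.28% fell in that comparison. Between KO MSC and WT MSC no gene of the 5 lists passed by limma, and at an unadjusted p under 0.05 there were 3 assembly factors, 1 carrier gene and 1 glycolysis gene, all higher in KO MSC.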

How the data were processed

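RNA of 12 libraries was measured (6 Tumor, 3 KO MSC, 3 WT MSC), copied with SMART-Seq v4 and made into libraries that do not mark strand, per the labels' protocols. The submitters' processing notes name the build mm10 and the tools TopHat2 2.0.13, Cuffdiff and Cufflinks 2.2.1. Later steps are not given in these sources. Log2 values that the authors deposited are variance-stabilized and batch-adjusted, per their table's title. The authors' other deposited table holds a score, equal to 100 times the stabilized value, rounded, times 1 factor per library (0.976 to 1.02), in 100% of 18949 genes (tolerance 0.01). Neither table lets read numbers be recovered. Depth is therefore unknown, and no count test was run.

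Each pair of groups had its own fit in R 4.3.3 by limma 3.58.1 (two-sided, eBayes with trend after lmFit, no covariate) over the 18948 genes of both tables that varied, with Benjamini-Hochberg adjustment and a threshold of 0.05. The fit was run on simulated data with independent libraries, a capped SD and large differences, without batch or length trends. That run checks the code and not the results given here. The score table, no filter, 2 scalings, a batch term, single batches, a replicate block, 1 fit of all groups, library weights and leaving out each library were alternatives, and a coding length adjustment (lowess, span 0.5) was added after the data were seen. Coding lengths are those of the principal transcript in GENCODE M21 (GRCm38), available for all 81 genes and 16294 genes tested. Promoter sequences are from RefSeq (GRCm38.p6). In 59 of 68 the start lay within 100 bases of GENCODE's.

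The genes named per comparison are the 4 of each complex with the smallest unadjusted p and all tissue forms with their counterparts, and among tumors the 8 with the largest SD. Others were added after their values were seen, and 1 member, kept in all counts and medians, is not reported here by name. The members and lists were chosen with earlier results of these data known.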

Additional observations from a re-analysis of the deposited data

Results flagged for a closer look

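Cox7b2, a testis form of a complex IV subunit, had 6.37 in tumor 6, while the next highest tumor had 4.80. The gap to the nearest tumor was 0.941 of the range over the 6 tumors, above Dixon's critical value of 0.625 for 6 samples. The other tumors were at the floors of their batches, and WT MSC 1, at 5.23, was the one other library above a floor. With the other tumors at floors, the ratio cannot tell an outlier from a gene read in 1 tumor alone. The 6 tumors were examined in this way in 54 genes in all. For normally distributed values chance gives about 1 such sample in 20 groups, a rate that does not hold for values at a floor.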

How the results depend on the processing

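In tumors against WT MSC, 65 genes rose, against 11 that passed in batch 2 alone, 29 with the replicate block and 38 with the coding length adjustment. Without single libraries 55 to 67 passed (the 67, without tumor 4, were 66 higher and 1 lower), with medians of 2.75 to 3.34. The median was 2.29 with quantile scaling, 1.28 with the coding length adjustment and 4.01 in batch 1 alone. In tumors against KO MSC, 0 genes passed in batch 2 alone and with the replicate block, 25 with all groups in 1 fit, 66 with library weights (63 higher), 5 with the coding length adjustment and 0 to 31 without single libraries. The median was 3.53 in batch 1 alone. In KO MSC against WT MSC 13 genes passed with library weights. In no comparison did all same-numbered libraries deviate together. In KO MSC against WT MSC the correlations of their deviations over genes were 0.24, 0.15 and -0.15. Such values cannot settle whether the numbers mark a pairing, because batch enters them too. The main fits treated the libraries as unpaired. The cause of these shifts was not tested, except that single batches hold fewer libraries. Signs turned for genes that did not pass under the alternative. In tumors against KO MSC these were Sdhd (-0.72 with quantile scaling, -0.64 with the coding length adjustment, -0.0408 to 0.62 without single libraries), Cox4i2 (-0.50 in batch 2 alone) and, with the coding length adjustment, Atp5g2 (-0.17), Cox7a2l (-0.45), Cox8a (-0.40) and Sdhc (-0.0891). In tumors against WT MSC they were Cox7b2 (-0.0786 with the block, -0.12 to 0.33 without single libraries) and, with the coding length adjustment, Cox7a2l (-0.21) and Cox8a (-0.40). In KO MSC against WT MSC they were Cox8b (0.18 with quantile and 0.0124 with upper-quartile scaling, -0.47 to 0.24 without single libraries), Sdha (0.10 with library weights, 0.30 with the coding length adjustment, -0.47 to 0.31 without single libraries), Cox6a1 (-0.0151 with the coding length adjustment), and, without single libraries, Cox4i2 (-0.28 to 1.03), Cox7a1 (-0.27 to 1.04) and Cox7b2 (-0.23 to 0.0330). Upper-quartile scaling moved the median of all genes by 0.104 in tumors against WT MSC and by 0.105 in KO MSC against WT MSC, and relative to that median the 81 genes stayed at 3.16 and 1.24. The other scalings moved it by less than 0.1. Of all genes tested, 4.61% passed in batch 2 alone and 6.3% with the block in tumors against WT MSC, and 10.1% with all groups in 1 fit and 25.4% with library weights in tumors against KO MSC.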
